A study of Mus musculus with 6 samples.

Results

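The genes of the chemokine ligands were followed in RNA sequencing of an AT2 cell preparation that also held airway markers. AT2 cells are the lung epithelial type that makes and stores surfactant. Members were the rows of the count table whose symbol is Ccl or Cxcl with digits and at most one trailing letter, plus Cx3cl1 and Xcl1. The rule took 38 of 52550 genes. Of the 38 ligands, 28 passed the filter on low counts and were tested, and 10 did not.

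All samples were C57BL/6 lung of the genotype Sftpc+/creERT2 with Grp78f/f, that is, a Cre activated by tamoxifen and driven from Sftpc together with floxed Grp78. The 3 Grp78KO libraries were labelled as given tamoxifen, and the 3 Control libraries as not given it. Tamoxifen itself and loss of Grp78 therefore cannot be told apart. The day label reads 10 days after the injection in every sample, Controls included, so the treatment of the Controls is in doubt. Cells were taken from dispase-digested lungs by magnetic sorting for CD45-negative, EPCAM-positive cells, and the Cre acts where Sftpc is expressed. The labels do not say whether each replicate came from its own mouse, and the p-values cover only the variation among these 6 libraries, which could be technical.

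Grp78KO libraries 1, 2 and 3 held between 110770711 and 128129307 counts, and Control libraries between 131235053 and 149520306. Hspa5, which encodes Grp78, was at 9262, 9181 and 3809 CPM in the Grp78KO libraries and at 1355, 1289 and 925 CPM in the Control libraries, opposite to the label. Gene counts do not separate the floxed exons, so the names Grp78KO and Control stand here for the labels of the libraries, and each direction is between libraries as labelled. AT2 markers were present in every library, with summed CPM of 58232, 56208 and 72618 in the Grp78KO libraries and 171180, 153020 and 145970 in the Control libraries. Airway secretory and ciliated markers were present as well, led by Scgb1a1 at 26914 to 30127 CPM in the Grp78KO libraries and 26136 to 48330 CPM in the Control libraries.

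Chemokines are small secreted proteins that direct the migration of leukocytes through G protein-coupled receptors. They are named by the spacing of their first cysteines, as CC, CXC, CX3C or XC ligands. CXC ligands with the residues ELR before the cysteines attract neutrophils, many inflammatory CC ligands attract monocytes, and homeostatic ligands position lymphocytes and progenitors. In the lung the alveolar and airway epithelium, resident macrophages and fibroblasts all make some of them.

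A handful of ligands are shown first by the 250 bases before their start, because Cxcl3, Cxcl1, Cxcl2 and Cxcl10 carry a match to a kappaB-like motif and Cxcl15, the most abundant ligand per length in these libraries, does not. Sequences are from the RefSeq promoter table (GRCm38.p6), 5′ to 3′ on the strand of the gene, and capitals mark the motif GGANTTNCC on either strand. Cxcl3, Cxcl15, Cxcl1 and Cxcl2 are neighbours on chromosome 5, plus strand, at chr5:90785851-90786100, chr5:90794284-90794533, chr5:90890995-90891244 and chr5:90903649-90903898. The window of Cxcl10 is at chr5:92348890-92349139 on the minus strand.

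Cxcl3: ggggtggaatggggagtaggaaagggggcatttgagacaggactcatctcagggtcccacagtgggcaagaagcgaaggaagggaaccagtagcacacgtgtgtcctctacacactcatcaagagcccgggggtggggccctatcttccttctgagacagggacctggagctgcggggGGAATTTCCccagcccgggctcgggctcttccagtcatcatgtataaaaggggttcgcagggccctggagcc

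Cxcl1: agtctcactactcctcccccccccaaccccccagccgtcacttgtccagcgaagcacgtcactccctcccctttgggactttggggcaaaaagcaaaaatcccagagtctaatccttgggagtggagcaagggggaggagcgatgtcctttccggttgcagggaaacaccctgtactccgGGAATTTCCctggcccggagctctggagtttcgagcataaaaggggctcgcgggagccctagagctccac

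Cxcl2: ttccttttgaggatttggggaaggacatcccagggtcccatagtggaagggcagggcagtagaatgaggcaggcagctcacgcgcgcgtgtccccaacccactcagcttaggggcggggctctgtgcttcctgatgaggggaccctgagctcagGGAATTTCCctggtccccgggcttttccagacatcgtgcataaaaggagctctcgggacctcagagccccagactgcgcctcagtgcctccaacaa

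Cxcl10: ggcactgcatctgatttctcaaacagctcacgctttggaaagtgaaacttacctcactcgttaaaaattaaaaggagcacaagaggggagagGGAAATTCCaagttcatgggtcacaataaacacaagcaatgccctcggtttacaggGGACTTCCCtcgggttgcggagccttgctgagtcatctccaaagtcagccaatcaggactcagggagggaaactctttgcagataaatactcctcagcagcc

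Cxcl15: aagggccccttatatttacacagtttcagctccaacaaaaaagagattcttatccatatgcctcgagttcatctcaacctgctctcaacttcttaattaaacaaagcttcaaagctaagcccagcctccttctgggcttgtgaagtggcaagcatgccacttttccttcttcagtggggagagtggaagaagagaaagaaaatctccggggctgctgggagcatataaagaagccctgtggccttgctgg

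In Cxcl3, Cxcl1 and Cxcl2 the match had the same 9 letters, GGAATTTCC, beginning 72, 70 and 96 bases before the start. Cxcl10 held 2 matches, GGAAATTCC and GGACTTCCC, beginning 158 and 102 bases before the start. Over the window of 250 bases before to 50 after the start, 4 of the 27 ligands with a promoter in the table held the motif (14.8%), against 3.95% of all 32851 promoters. A ligand was counted once if any of its windows held the motif, whereas each of the 32851 promoter windows was counted on its own. The shares are therefore not like for like, and ligands with several windows had more places to match. Ccl2, Ccl4, Ccl5, Ccl7, Ccl11, Ccl24, Ccl26, Cxcl5, Cxcl11, Cxcl16 and Cxcl17 had no entry. The motif was absent not only from Cxcl15 but also from Ccl8, Ccl21a, Ccl28, Cxcl12, Cxcl13 and Cxcl14, which are called higher below. Of the ligands with it, Cxcl2 and Cxcl3 are called higher below, and Cxcl1 and Cxcl10 are not called. A match describes letters only and is not evidence of binding.

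Across the family, Cxcl15 and Ccl27a were lower in the Grp78KO libraries and 12 ligands were higher. The higher ones were Ccl2, Ccl7, Ccl8, Ccl11, Ccl21a, Ccl28, Cxcl2, Cxcl3, Cxcl12, Cxcl13, Cxcl14 and Cxcl17. The other 14 of the 28 tested were not called. Calls are edgeR quasi-likelihood calls at a Benjamini-Hochberg adjusted p under 0.05 over all 18849 genes tested. Over all genes, 18.0% were called higher and 18.8% lower, against 42.9% and 7.14% of the 28 ligands tested. The groups did not overlap, with the Grp78KO libraries above, for 13 ligands tested, where 25.0% of all genes behaved so. They did not overlap in the other direction for 4 ligands, where the figure for all genes was 26.6%. The median log2 fold of the ligands tested was 1.0 and that of all genes 0.02. Ccl7 and Ccl8 passed the filter through the Grp78KO libraries alone and so had to differ. The counts and medians of the ligands tested therefore describe those that passed and are not support for a shared direction. With library size alone 82.2% of calls over all genes were higher, and with upper-quartile factors 59.2%, against 48.9% with TMM factors. The median log2 fold was then 1.26 for the ligands and 0.27 for all genes with library size alone, and 1.06 and 0.09 with upper-quartile factors. Under library size alone 14 ligands were higher and 2 lower, and under upper-quartile factors 12 and 2.

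**Figure D1:**
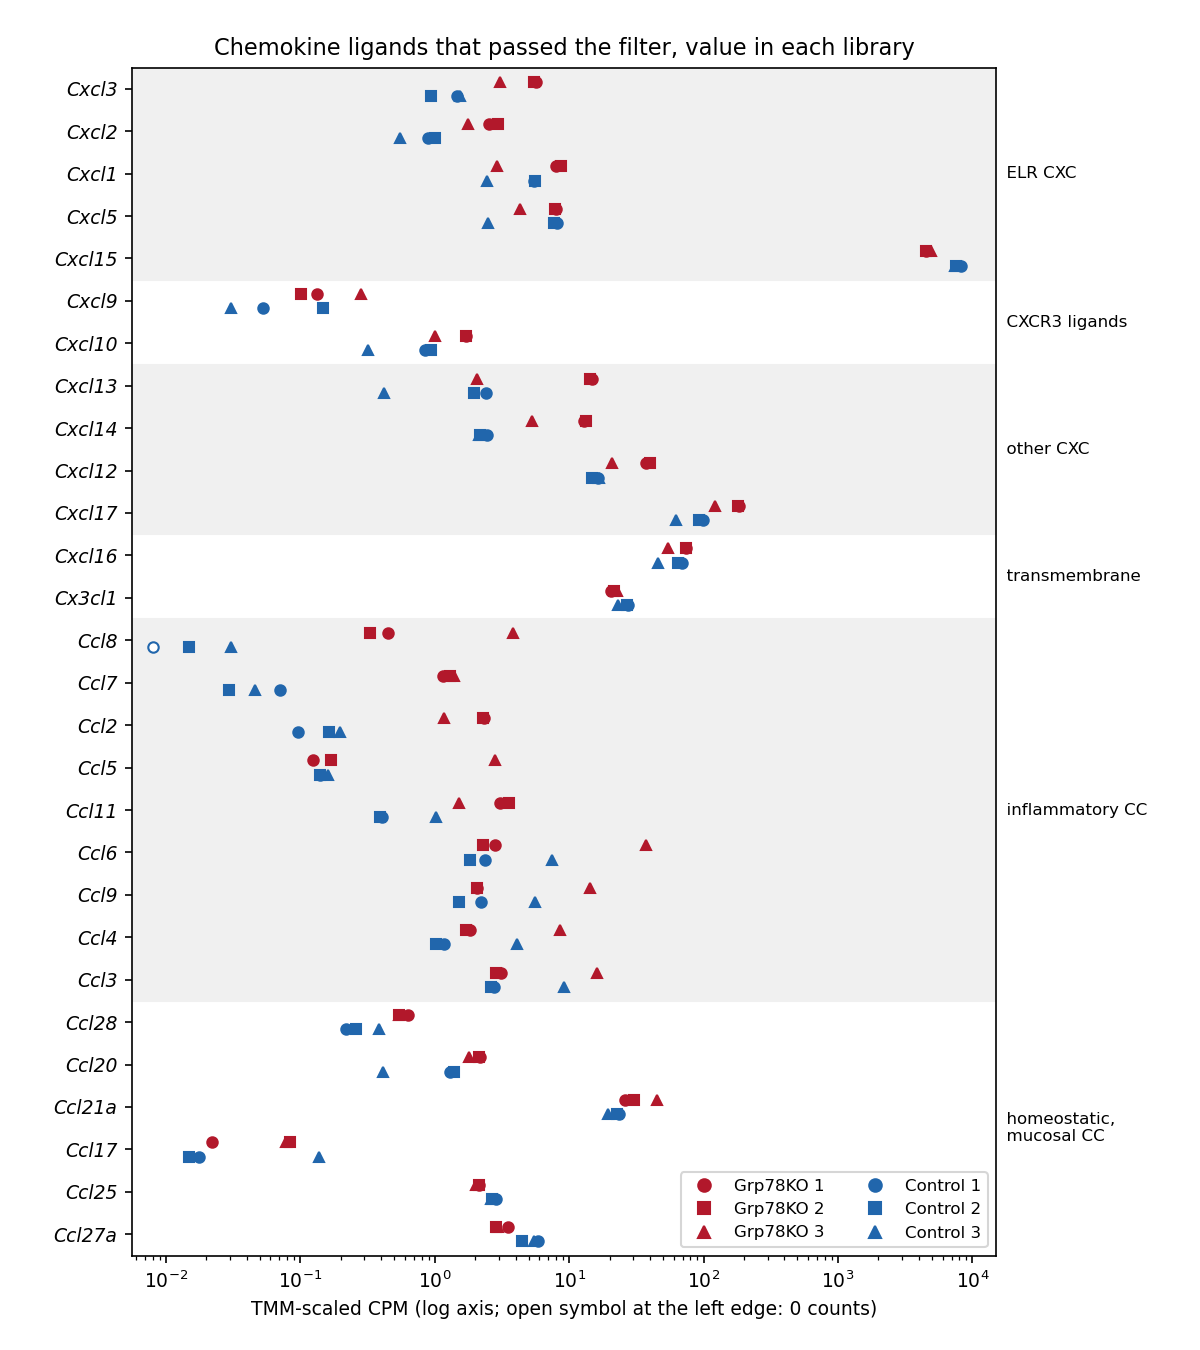
Level of each of the 28 ligands tested in each library, in TMM-scaled CPM on a log axis, with Grp78KO libraries (red) above Control libraries (blue) in each row symbols giving the library number and an open symbol for 0 counts. Cxcl15 lies at 4527 to 4891 CPM in the Grp78KO libraries and 7405 to 8267 CPM in the Control libraries, far right of every other ligand, and the triangles of Ccl6, Ccl9, Ccl4 and Ccl3 lie to the right of the other symbols in both groups.

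**Figure D2:**
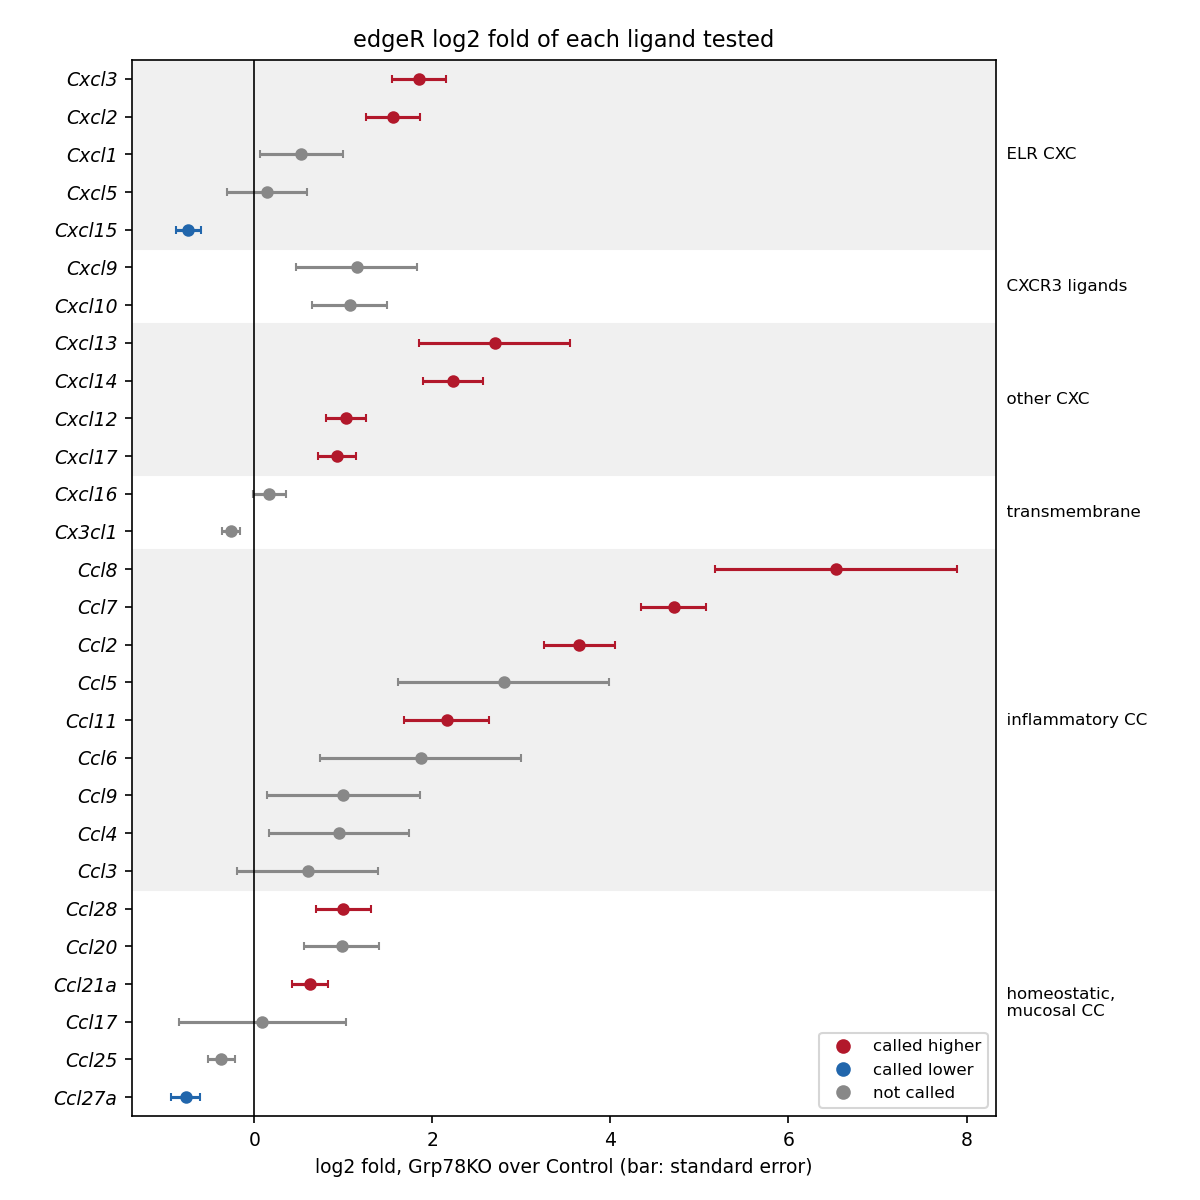
The edgeR log2 fold, Grp78KO over Control, of each ligand tested, with its standard error as a bar, ordered by class and fold and coloured by call. Red points are the 12 ligands called higher, blue points Cxcl15 and Ccl27a, and grey points the 14 not called, whose bars are widest for Ccl5 and Ccl6.

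Cxcl15 (lungkine), an ELR CXC ligand of lung epithelium, dominated the family and fell. It was at 4537, 4527 and 4891 CPM in the Grp78KO libraries and at 8267, 7572 and 7405 CPM in the Control libraries. All 3 Grp78KO values lay below every Control value. On the log2 scale the fold was -0.74 (SE 0.141, edgeR adjusted p = 0.00702), a level 1.67-fold higher in the Control libraries, and its call was kept under each alternative run, with log2 folds from -0.80 to -0.47. Cxcl15 made up 91.9% ± 0.772 of all ligand counts in the Grp78KO libraries and 96.9% ± 0.266 in the Control libraries (SD, n = 3 each). The gene spans 90794534 to 90803067 on the plus strand of chromosome 5 (mm10, GENCODE M21). All 10 markers of AT2 cells, Cxcl15 among them, were lower, with log2 folds of -1.59 (Sftpc) to -0.53 (Sftpd). In bulk libraries fewer cells of a type and less RNA per cell cannot be told apart.

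Levels between ligands were compared per kilobase of exon. Cxcl15 stood at 2187 ± 97.5 CPM per kilobase in the Grp78KO libraries and 3643 ± 215 in the Control libraries (SD, n = 3 each). Cxcl17 was next at 212 ± 46.2 and 111 ± 25.7 CPM per kilobase in the Grp78KO and Control libraries. Ccl21a followed at 39.0 ± 11.7 and 25.1 ± 2.59, and Cxcl16 at 22.3 ± 3.86 and 19.8 ± 4.06, in the same order of groups. In the Control libraries the SD ranges of Ccl21a and Cxcl16 overlapped. Ccl3, the fifth, was at 9.60 ± 9.90 CPM per kilobase in the Grp78KO libraries and 6.32 ± 4.84 in the Control libraries, a spread that overlaps with the ligands below it. Without Cxcl15, the other 37 ligands summed to 422, 425 and 380 CPM in the Grp78KO libraries and to 278, 258 and 214 CPM in the Control libraries.

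The other ELR ligands lie within 146.6 kb of each other and of Cxcl15 on chromosome 5, and did not share its direction. Cxcl3 and Cxcl2, neutrophil attractants acting through CXCR2, rose. Cxcl3 was at 5.69, 5.49 and 3.05 CPM in the Grp78KO libraries and at 1.47, 0.931 and 1.55 CPM in the Control libraries. The groups were separate, and Grp78KO over Control gave 1.85 on the log2 scale (SE 0.303, edgeR adjusted p = 0.00396). Cxcl2 was at 2.52, 2.95 and 1.78 CPM in the Grp78KO libraries and at 0.895, 1.01 and 0.551 CPM in the Control libraries. These groups were separate too, and Grp78KO over Control gave 1.56 on the log2 scale (SE 0.302, edgeR adjusted p = 0.00733). Both calls held under each alternative run.

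Cxcl1 and Cxcl5, of the same cluster and the same receptor, were not called. Cxcl1 was at 8.02, 8.65 and 2.92 CPM in the Grp78KO libraries and at 5.49, 5.61 and 2.44 CPM in the Control libraries. Both libraries numbered 3 were the low ones of their group, and the groups overlapped (log2 fold 0.53, edgeR adjusted p = 0.399). With the replicate number as a block Cxcl1 was called higher (log2 fold 0.48, edgeR adjusted p = 0.0289), as it was without both libraries numbered 3 (0.000655). Cxcl5 was at 7.94, 7.89 and 4.33 CPM in the Grp78KO libraries and at 8.11, 7.71 and 2.50 CPM in the Control libraries. It showed the same low values in the libraries numbered 3, and its log2 fold was 0.14 (edgeR adjusted p = 0.826).

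**Figure D3:**
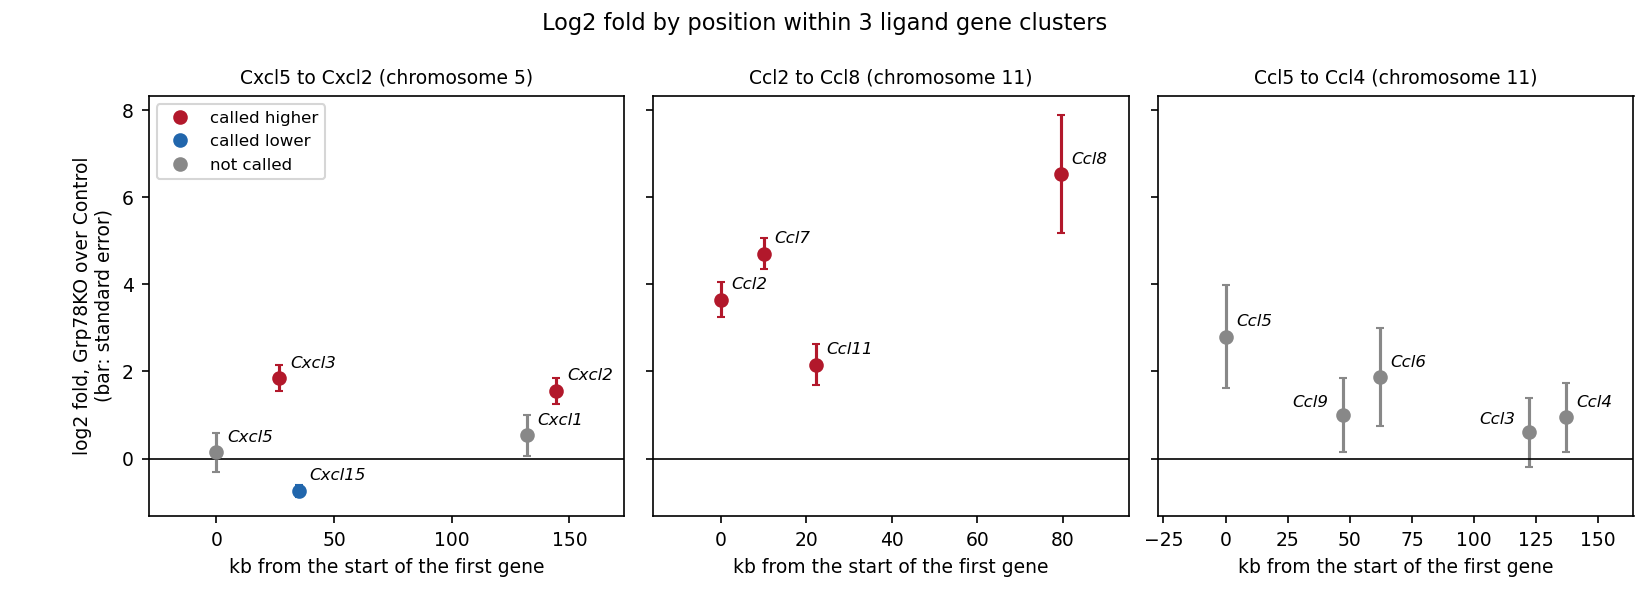
Log2 fold, Grp78KO over Control, with its standard error, of the ligands tested in 3 gene clusters, against the distance in kb from the start of the first gene of the cluster. In the Cxcl cluster Cxcl15 (-0.74) lies between Cxcl3 (1.85, called higher) and Cxcl1 (0.53, not called). In the Ccl2 cluster all 4 points lie above 2, and in the Ccl3 cluster no point was called.

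The CXCR3 ligands, which attract activated T cells and are known as interferon-induced genes, were low. Cxcl10 was at 1.71, 1.70 and 0.999 CPM in the Grp78KO libraries and at 0.842, 0.931 and 0.322 CPM in the Control libraries. The groups were separate, but the call was missed (log2 fold 1.07, SE 0.421, edgeR adjusted p = 0.081). It was called higher with the replicate block (edgeR adjusted p = 0.0157), without Grp78KO 3 (0.0421), without both libraries numbered 3 (0.00245), with library-size scaling (0.034) and by DESeq2 (0.0305). Exons of Cxcl10 share 133 bases with Art3 on the opposite strand, and the kit's strand is not stated. Cxcl9 was at 0.101 to 0.284 CPM in the Grp78KO libraries and 0.0306 to 0.148 CPM in the Control libraries (log2 fold 1.15, edgeR adjusted p = 0.217). Cxcl11, annotated as a polymorphic pseudogene, had 2 counts in Control 2 and 0 in the other 5 libraries.

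The remaining secreted CXC ligands, Cxcl12, Cxcl13, Cxcl14 and Cxcl17, all rose. Cxcl17, a ligand of mucosal epithelium on chromosome 7, was at 184, 180 and 121 CPM in the Grp78KO libraries and at 99.4, 92.0 and 62.4 CPM in the Control libraries. The groups were separate, and in each the library numbered 3 was lowest (log2 fold 0.93, SE 0.218, edgeR adjusted p = 0.0144). The call ended without Grp78KO 1 (edgeR adjusted p = 0.0524) or Grp78KO 2 (edgeR adjusted p = 0.0548). Airway markers were called in 0 of 5 cases by edgeR, DESeq2 and limma-voom and had an unadjusted p under 0.05 in 0, with summed CPM of 33086, 35295 and 31594 in the Grp78KO libraries and 56317, 53624 and 30625 in the Control libraries.

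Cxcl14, a ligand of epithelia and stroma, is on chromosome 13. It was at 12.9, 13.5 and 5.32 CPM in the Grp78KO libraries and at 2.47, 2.17 and 2.13 CPM in the Control libraries. Grp78KO 3 was the lowest of its group and still above each Control (log2 fold 2.23, SE 0.336, edgeR adjusted p = 0.00302). Cxcl12, the CXCR4 ligand that retains progenitors and lymphocytes, was at 37.6, 39.7 and 20.9 CPM in the Grp78KO libraries and at 16.5, 14.9 and 16.6 CPM in the Control libraries. It rose by 1.03 on the log2 scale (SE 0.225, edgeR adjusted p = 0.0111), a call that ended without Control 2 (edgeR adjusted p = 0.054).

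Cxcl13, which draws B cells through CXCR5, was the only one of the 4 whose groups overlapped. It was at 14.8, 14.4 and 2.06 CPM in the Grp78KO libraries and at 2.41, 1.97 and 0.421 CPM in the Control libraries. Grp78KO 3 lay between Control 2 and Control 1, and each library numbered 3 was far below the others of its group. On the log2 scale it rose by 2.70 (SE 0.85, edgeR adjusted p = 0.0438). The call ended when any library other than Grp78KO 3 was left out, at edgeR adjusted p of 0.0793, 0.107 and 0.0872 without Controls 1, 2 and 3 and 0.149 and 0.116 without Grp78KO 1 and 2, and with limma-voom (adjusted p = 0.106) or no filter (edgeR adjusted p = 0.174).

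The transmembrane ligands Cxcl16 and Cx3cl1, which ADAM proteases can shed, were among the more abundant members and were not called. Cxcl16 was at 74.7, 73.6 and 54.0 CPM in the Grp78KO libraries and at 69.2, 64.5 and 46.0 CPM in the Control libraries. The groups overlapped (log2 fold 0.17, SE 0.183, edgeR adjusted p = 0.491), and 552 exon bases (18.3%) are shared with Zmynd15 on the opposite strand. Cx3cl1, the fractalkine gene, was at 20.4, 21.7 and 22.6 CPM in the Grp78KO libraries and at 27.6, 26.8 and 23.2 CPM in the Control libraries. Its groups were separate by a narrow gap (log2 fold -0.26, SE 0.0987, edgeR adjusted p = 0.0732). Without Control 3 it was called lower (edgeR adjusted p = 0.028), as it was without both libraries numbered 3 (0.00188), and scaled by library size alone it stood at 0.00.

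Among inflammatory CC ligands, the neighbours Ccl2, Ccl7, Ccl11 and Ccl8 on chromosome 11 rose, all from low levels. Ccl2 and Ccl7 are monocyte attractants acting through CCR2, Ccl11 is eotaxin, and Ccl8 attracts several leukocyte types. Ccl2 was at 2.35, 2.30 and 1.18 CPM in the Grp78KO libraries and at 0.0965, 0.163 and 0.199 CPM in the Control libraries. The groups were far apart, and Grp78KO over Control gave 3.65 on the log2 scale (SE 0.401, edgeR adjusted p = 0.000982). Ccl7 had 156, 155 and 196 counts in Grp78KO libraries and 8, 4 and 6 counts in Control libraries, or 1.15, 1.30 and 1.39 CPM against 0.0702, 0.0296 and 0.0459 CPM. On the log2 scale the fold was 4.71 (SE 0.364, edgeR adjusted p = 0.000445), and the calls of both genes held under each alternative run. Ccl7 passed the filter through the Grp78KO libraries alone and had to differ, so its stable call is not support for a rise.

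Ccl11 was at 3.05, 3.58 and 1.52 CPM in the Grp78KO libraries and at 0.404, 0.392 and 1.03 CPM in the Control libraries. Grp78KO 3 was the lowest and Control 3 the highest of its group (log2 fold 2.16, SE 0.478, edgeR adjusted p = 0.012). Without Control 3 the log2 fold was 2.76, and without Control 2 the call ended (edgeR adjusted p = 0.053). Ccl8 had 61, 39 and 538 counts in the Grp78KO libraries and 0, 2 and 4 counts in the Control libraries. The log2 fold (6.53, SE 1.36, edgeR adjusted p = 0.011) rests on these few Control counts and on Grp78KO 3. It was 4.55 without Grp78KO 3 (edgeR adjusted p = 0.00321) and 7.41 without Control 3, limma-voom did not call it (adjusted p = 0.055), and DESeq2 gave it no adjusted p. Ccl12, between Ccl11 and Ccl8, did not pass the filter, with 4, 2 and 46 counts in the Grp78KO libraries and 0 in each Control library. A count of 0 allows up to 3 independent counts, or more if both mates of a pair were counted.

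Fibroblast markers are set here beside Ccl2, Ccl7, Ccl11, Cxcl12, Cxcl13 and Cxcl14. These ligands were taken from the 12 called higher, so a direction shared with markers called higher was fixed by that choice. All 8 fibroblast markers were called higher (100%, against 18.0% over all genes). They summed to 1202, 1294 and 1350 CPM in the Grp78KO libraries and to 241, 237 and 595 CPM in the Control libraries. No fibroblast marker was at 0 in any library. Over the mean of Grp78KO 1 and 2, Grp78KO 3 stood at 1.08 for the marker sum, of which the collagen genes made up most, and Pdgfra, Inmt, Dcn and Col3a1 were lower in it than in both others. The same ratio was 0.506 for Ccl2, 1.13 for Ccl7, 0.458 for Ccl11, 0.541 for Cxcl12, 0.141 for Cxcl13 and 0.404 for Cxcl14. Over the mean of Controls 1 and 2, Control 3 stood at 2.485 for the marker sum. That ratio was 1.54 for Ccl2, 0.921 for Ccl7, 2.58 for Ccl11, 1.06 for Cxcl12, 0.192 for Cxcl13 and 0.92 for Cxcl14. Mesothelial markers were called higher in 4 of 5 cases (80%), with sums of 186, 202 and 180 CPM in the Grp78KO libraries and 106, 103 and 115 CPM in the Control libraries. Endothelial markers were called higher in 1 of 5 cases (Vwf), or 20%, near the 18.0% over all genes. The endothelial sums were 647, 680 and 396 CPM in the Grp78KO libraries and 413, 415 and 382 CPM in the Control libraries. Their part in these results was not tested.

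The second CC cluster of chromosome 11, Ccl5, Ccl9, Ccl6, Ccl3 and Ccl4, had 0 of 5 genes called by edgeR or limma-voom and 1 with an unadjusted edgeR p under 0.05. DESeq2 gave an adjusted p for 3 of the 5, not for Ccl5 or Ccl6, and called 0. Ccl3 and Ccl4 are made by activated macrophages and lymphocytes, Ccl6 and Ccl9 are myeloid ligands of the mouse, and Ccl5 attracts T cells. Ccl3 was at 3.09, 2.87 and 16.1 CPM in the Grp78KO libraries and at 2.75, 2.64 and 9.12 CPM in the Control libraries. Ccl6 was at 2.82, 2.27 and 37.4 CPM in the Grp78KO libraries and at 2.37, 1.83 and 7.41 CPM in the Control libraries. The library numbered 3 was the high one in both groups for each of these genes, and the groups overlapped.

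Ccl9 (2.07, 2.07 and 14.4 CPM in the Grp78KO libraries, 2.19, 1.51 and 5.58 CPM in the Control libraries) and Ccl4 (1.82, 1.71 and 8.55 CPM in the Grp78KO libraries, 1.18, 1.02 and 4.07 CPM in the Control libraries) followed the same order. Ccl5 differed from them in being at 0.125, 0.168 and 2.80 CPM in the Grp78KO libraries and at an even 0.140, 0.140 and 0.161 CPM in the Control libraries. For Ccl3, Ccl4, Ccl5, Ccl6 and Ccl9 the edgeR adjusted p was 0.579, 0.378, 0.104, 0.232 and 0.393. Without Grp78KO 3 the log2 folds of Ccl3, Ccl4, Ccl5, Ccl6 and Ccl9 turned from 0.60, 0.95, 2.80, 1.87 and 1.0 to -0.70, -0.24, -0.01, -0.60 and -0.58. With the replicate block Ccl4 was called higher (log2 fold 0.82, edgeR adjusted p = 0.012), as it was without both libraries numbered 3 (0.0115).

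**Figure D4:**
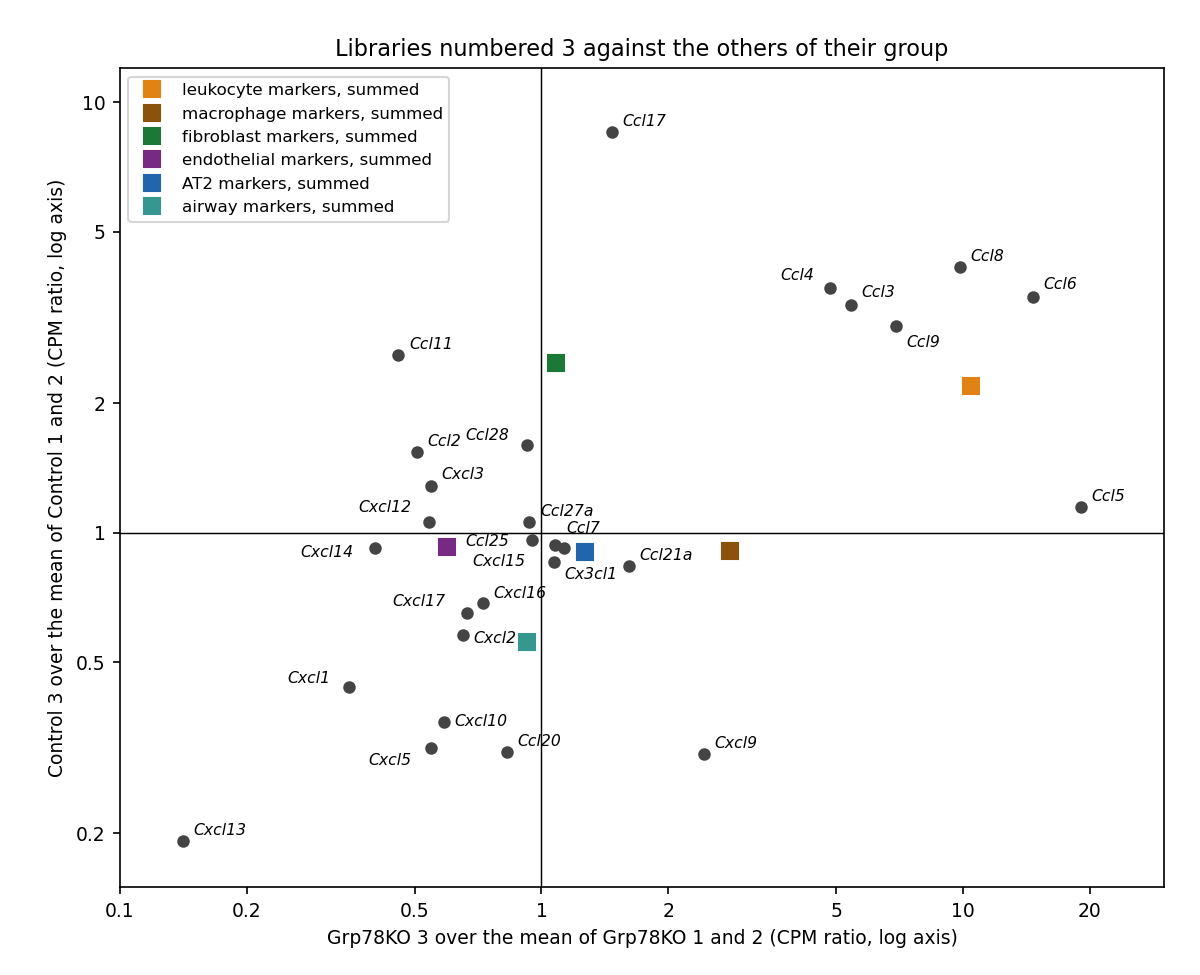
Ratio of Grp78KO 3 to the mean of Grp78KO 1 and 2 (x axis) against the ratio of Control 3 to the mean of Control 1 and 2 (y axis), both log axes, for each ligand tested (grey points) and for summed cell type markers (squares). Ccl3, Ccl4, Ccl6, Ccl8 and Ccl9 lie at the upper right with the leukocyte markers, and Cxcl13, Cxcl1, Cxcl5 and Cxcl10 at the lower left.

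Leukocyte markers were also highest in Grp78KO 3. Of the 7 general leukocyte markers, 0 were called by edgeR or limma-voom, 0 had an unadjusted edgeR p under 0.05, and DESeq2 called 0 of the 3 it gave an adjusted p. They summed to 7.86, 7.90 and 82.1 CPM in the Grp78KO libraries and to 7.98, 6.14 and 15.5 CPM in the Control libraries, so Grp78KO 3 stood 10.4-fold above the mean of Grp78KO 1 and 2. The same ratio was 5.41 for Ccl3, 4.85 for Ccl4, 6.95 for Ccl9, 9.82 for Ccl8, 14.7 for Ccl6 and 19.1 for Ccl5. Control 3 stood 2.20-fold above the mean of Controls 1 and 2 for the markers, and 3.38-fold for Ccl3, 3.704-fold for Ccl4, 3.53-fold for Ccl6 and 3.02-fold for Ccl9. For Ccl5 it was 1.15-fold. Macrophage markers were called higher in 2 of 9 tested cases (Mrc1 and C1qc), or 22.2%, near the 18.0% over all genes. Of these markers limma-voom called 0, and DESeq2 called 1 of the 3 it gave an adjusted p. C1qc was at 0.272, 0.252 and 12.1 CPM in the Grp78KO libraries and at 0.0526, 0.104 and 0.107 CPM in the Control libraries. The macrophage list summed to 122, 119 and 338 CPM in the Grp78KO libraries and to 110, 101 and 95.6 CPM in the Control libraries. Cd14 alone was at 101, 98.5 and 89.7 CPM in the Grp78KO libraries and 95.8, 88.0 and 76.0 CPM in the Control libraries. Marco was at 0 in Control 1, and the neutrophil marker Ly6g was at 0 in Grp78KO 1 and 2 and in Controls 1 and 3. Neutrophil markers (1 of 3 tested called higher, Csf3r, or 33.3% against 18.0% over all genes) summed to 1.74, 1.84 and 11.1 CPM in the Grp78KO libraries and to 0.789, 1.03 and 6.96 CPM in the Control libraries. T and NK markers (0 of 3 tested called by edgeR or limma-voom, 0 of 2 by DESeq2, and 0 with an unadjusted edgeR p under 0.05) summed to 0.552, 0.471 and 7.99 CPM in the Grp78KO libraries and 0.798, 0.650 and 0.873 CPM in the Control libraries. B cell markers (0 of 3 called by edgeR, DESeq2 or limma-voom, 2 with an unadjusted edgeR p under 0.05) summed to 9.60, 10.1 and 21.6 CPM in the Grp78KO libraries and 16.0, 14.2 and 17.3 CPM in the Control libraries. Their part in the values of the ligands was not tested.

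Of the homeostatic and mucosal CC ligands, Ccl21a and Ccl28 rose, Ccl27a fell, and Ccl20, Ccl25 and Ccl17 were not called. Ccl27a, a ligand of CCR10, was at 3.49, 2.84 and 2.96 CPM in the Grp78KO libraries and at 5.89, 4.47 and 5.49 CPM in the Control libraries. The groups were separate, and the fall by 0.77 on the log2 scale (SE 0.162, edgeR adjusted p = 0.00991) was called under each alternative run. Ccl28, also a CCR10 ligand, was at 0.633, 0.546 and 0.546 CPM in the Grp78KO libraries and at 0.219, 0.259 and 0.383 CPM in the Control libraries. On the log2 scale it rose by 1.0 (SE 0.309, edgeR adjusted p = 0.0388), and the call ended with the replicate block (edgeR adjusted p = 0.0528), with no filter (edgeR adjusted p = 0.0622) and without Control 1, Control 2, Grp78KO 1 or Grp78KO 2 (edgeR adjusted p = 0.114, 0.133, 0.125 and 0.0958).

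Ccl21a, which guides dendritic cells and naive T cells through CCR7, was at 25.9, 30.5 and 45.4 CPM in the Grp78KO libraries and at 23.7, 22.6 and 19.4 CPM in the Control libraries. Each Grp78KO value lay above each Control value (log2 fold 0.63, SE 0.202, edgeR adjusted p = 0.0424). The call ended with the replicate block (edgeR adjusted p = 0.0745) and without Control 1, 2 or 3 or Grp78KO 2 (edgeR adjusted p = 0.0767, 0.106, 0.12 and 0.0741). It also ended with limma-voom (adjusted p = 0.0529) and with no filter (edgeR adjusted p = 0.0552). The near-identical copy Ccl21b had 0 counts in each library, as had Ccl27b, the copy of Ccl27a, so how reads were shared among copies is uncertain. Markers of lymphatic endothelium, a known source of Ccl21a, were higher for Mmrn1 (log2 fold 0.87) and Prox1 (log2 fold 0.68) and not called for Lyve1 (log2 fold 0.51, edgeR adjusted p = 0.192), and that list of 4, which holds Ccl21a itself, summed to 82.2, 92.1 and 87.0 CPM in the Grp78KO libraries and 61.7, 58.3 and 49.9 CPM in the Control libraries.

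Ccl20, the ligand of CCR6, was at 2.17, 2.14 and 1.79 CPM in the Grp78KO libraries and at 1.30, 1.38 and 0.414 CPM in the Control libraries. The groups were separate without a call (log2 fold 0.98, edgeR adjusted p = 0.102), and the replicate block gave one (edgeR adjusted p = 0.0479), as did library-size scaling (0.0427), leaving out both libraries numbered 3 (0.00645) and DESeq2 (0.0408). Ccl25, the CCR9 ligand, was at 2.03 to 2.13 CPM in the Grp78KO libraries and 2.64 to 2.84 CPM in the Control libraries (log2 fold -0.37, edgeR adjusted p = 0.0889). Exons of Ccl25 share 204 bases (2.74%) with Elavl1 on the opposite strand, and those of Ccl27a share 8 bases with Il11ra1. Ccl17 had at most 18 counts in a library (log2 fold 0.09, edgeR adjusted p = 0.947). Below the filter, Ccl19, Ccl24, Ccl22, Xcl1, Ccl26 and Ccl1 reached at most 28, 24, 16, 6, 4 and 2 counts in any library.

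Among the receptors of these ligands, Ackr1 rose and Ccr6 fell. Of 24 receptors, 19 were tested, and 4 were higher and 1 lower. That is 21.1% and 5.26% of those tested, against 18.0% and 18.8% over all genes. Ackr1, an atypical receptor of venules and red cells that binds many inflammatory ligands, was at 4.001, 3.55 and 0.610 CPM in the Grp78KO libraries and at 0.114, 0.133 and 0.146 CPM in the Control libraries. It rose with a fold of 4.36 on the log2 scale (SE 0.699, edgeR adjusted p = 0.0038). Ccr6, the receptor of Ccl20, was at 0.132, 0.0336 and 0.397 CPM in the Grp78KO libraries and at 2.09, 2.20 and 2.50 CPM in the Control libraries. It fell by 3.57 on the log2 scale (SE 0.69, edgeR adjusted p = 0.00745), and this call held under each alternative run. The call of Ackr1 held wherever it was tested, which excludes the filter of 1 CPM in 3 libraries. Of the 5 endothelial markers Vwf rose, at 356, 379 and 188 CPM in the Grp78KO libraries and 164, 158 and 156 CPM in the Control libraries. Pecam1, Cldn5, Cdh5 and Kdr were not called, with log2 folds of 0.39, 0.32, 0.11 and -0.22. The part of endothelial cells was not tested.

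Ackr3, the scavenger of Cxcl12, was at 23.1, 22.8 and 11.4 CPM in the Grp78KO libraries and at 10.99, 11.1 and 7.79 CPM in the Control libraries (log2 fold 0.94, edgeR adjusted p = 0.0342). Grp78KO 3 lay just above the highest Control. Cxcr3 was at 0.103, 0.202 and 0.751 CPM in the Grp78KO libraries and at 0.0877, 0.0296 and 0.0306 CPM in the Control libraries, and rose (log2 fold 2.84, edgeR adjusted p = 0.0348). With 10, 4 and 4 counts in the Control libraries, each below the filter for its library size, Cxcr3 passed through the Grp78KO libraries alone. It so had to differ, and its call, among the 4 higher receptors, is not support for a rise. Without Grp78KO 3 its log2 fold was 1.63 and it was not called (edgeR adjusted p = 0.096). Ackr2, a scavenger of CC ligands, rose by 0.90 (edgeR adjusted p = 0.039) and was named after its value was seen. The calls of Ackr2 and Ackr3 each ended when any library other than Grp78KO 3 was left out (edgeR adjusted p from 0.079 to 0.132) and with limma-voom (adjusted p = 0.0548 and 0.0537), and that of Ackr3 also with no filter (edgeR adjusted p = 0.0826). That of Cxcr3 ended without Control 2 (0.12), Control 3 (0.106), Grp78KO 2 (0.0558) or Grp78KO 3, without both libraries numbered 3 (0.133), with limma-voom (0.0784) and with the replicate block (edgeR adjusted p = 0.0795). For Cxcr4, the signalling receptor of Cxcl12, the log2 fold was -0.08 (edgeR adjusted p = 0.866). Cx3cr1, the receptor of Cx3cl1, was at 30.9 to 36.0 CPM in the Grp78KO libraries and 22.9 to 29.7 CPM in the Control libraries, and was not called (edgeR adjusted p = 0.111).

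Of 50 genes that induce, sense or trim chemokines, 47 were tested, 7 were higher and 13 lower, with a median log2 fold of 0.05. Those are 14.9% and 27.7% of the genes tested, against 18.0% and 18.8% over all genes. With library-size scaling 19 were higher and 4 lower. Dpp4, a protease that removes the first residues of Cxcl12 and other ligands, was at 73.1, 75.7 and 93.9 CPM in the Grp78KO libraries and at 173, 180 and 191 CPM in the Control libraries. It fell by 1.16 on the log2 scale (SE 0.119, edgeR adjusted p = 0.000818). The cytokine gene Csf2 fell by 1.52 (edgeR adjusted p = 0.00068) and the AP-1 subunit gene Jun by 0.90 (edgeR adjusted p = 0.00247). Ifngr2, a chain of the interferon gamma receptor, rose by 0.63 (edgeR adjusted p = 0.00167).

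Named after their values were seen, the inducers Tnf, Il6 and Il1b rose, and the cytokine gene Il33 and the NF-kappaB gene Nfkb1 fell. For Il1b the log2 fold was 1.06 (edgeR adjusted p = 0.0302), and for Il33 it was -0.84 (edgeR adjusted p = 0.0264). Both calls ended with the replicate block (edgeR adjusted p = 0.0543 and 0.0512) and in several runs with 1 library left out. Il6 was at 3.99, 4.87 and 6.17 CPM in the Grp78KO libraries and at 1.74, 1.53 and 2.23 CPM in the Control libraries (log2 fold 1.45, edgeR adjusted p = 0.00307). Tnf was at 0.177, 0.286 and 0.354 CPM in the Grp78KO libraries and at 0.0702, 0.0443 and 0.0536 CPM in the Control libraries (log2 fold 2.27, edgeR adjusted p = 0.00764). With 8, 6 and 7 counts in the Control libraries, Tnf passed the filter through the Grp78KO libraries alone and so had to differ. Its call is among the 7 higher inducers and is not support for a rise. Nfkb1 was at 63.4, 66.1 and 72.0 CPM in the Grp78KO libraries and at 93.2, 99.5 and 96.3 CPM in the Control libraries (log2 fold -0.52, edgeR adjusted p = 0.00391), a call that ended with library-size scaling (log2 fold -0.26, edgeR adjusted p = 0.0882). Of the other NF-kappaB subunit genes, Rel was lower (log2 fold -0.55, edgeR adjusted p = 0.0384). That call ended with library-size scaling too (edgeR adjusted p = 0.286). Rela, Nfkb2 and Relb were not called (log2 folds -0.22, 0.19 and 0.08, edgeR adjusted p = 0.132, 0.103 and 0.699). Neither Nfkbia, the inhibitor that NF-kappaB induces (-0.10, edgeR adjusted p = 0.621), nor the sheddase gene Adam10 (0.01, edgeR adjusted p = 0.952) was called, with log2 folds given in the brackets.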

How the data were processed

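RNA was sequenced from an AT2 cell preparation, sorted as CD45-negative and EPCAM-positive, in 3 Grp78KO and 3 Control libraries. Markers of other cell types were present as well, so ligand values cannot be placed in AT2 cells alone. The authors deposited raw counts per gene symbol. Per the labels' protocols, a NEBNext Ultra RNA kit and paired reads were used, and the submitters' processing notes name mm10 and edgeR 3.7 without a role. The sources used here name no aligner, counting program or annotation. Genes with 2 counts outnumbered genes with 1 count by 1.63 to 1.76 times per library, so the deposited counts may hold both mates of a pair.

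edgeR 4.0.16 in R 4.3.3 was run on the counts of all genes with filterByExpr (minimum count 10), TMM factors, robust dispersions and a quasi-likelihood F test whose model held the group alone. Of 52550 genes 18849 were tested, and a gene was called at a Benjamini-Hochberg adjusted p under 0.05. Log2 folds are Grp78KO over Control, the SE is the size of the fold over the root of F, and CPM is scaled by TMM. The common biological coefficient of variation was 22.3%. Exon lengths and coordinates were taken from GENCODE M21 (mm10), matched by symbol for all 38 ligands, and promoters from RefSeq (GRCm38.p6), matched for 27. The fit was tested on simulated counts.

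The ligands, the gene lists and the tests were chosen with earlier results of these data known. Full values were given for ligands called, for Cxcl15 and for the 5 ligands highest per length, and of the receptor and inducer lists the 4 genes with the lowest adjusted p were named. Across genes, same-numbered libraries deviated together from their group means, with correlations of 0.174, 0.147 and 0.281 for numbers 1, 2 and 3, each over 0.1, and Grp78KO 1 with Control 2 reached 0.116. No label gives a meaning for the numbers. The main model has no block. Values from a fit with the number as a replicate block are given where they change the call of a ligand. They are also given where they end the call of a receptor or inducer named here, and other listed genes enter only as counts. Alternatives were DESeq2 1.42.0, limma-voom (limma 3.58.1), other scalings and filters, halved counts, the replicate block, and leaving out each library or both libraries numbered 3. Protein sequences were not used here.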

Additional observations from a re-analysis of the deposited data

How the results depend on the processing

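Cxcl15, Ccl27a, Ccl2, Ccl7, Cxcl2, Cxcl3 and Cxcl14 kept their direction and call under each of the 16 alternatives. For Ccl7, which passed the filter through the Grp78KO libraries alone and had to differ, this is not support for a rise. Leaving out 1 library gave 7 to 13 ligands higher (7 without Control 2), 1684 to 4242 genes higher and 1881 to 4306 lower over all genes, 1 to 3 receptors higher and 1 to 3 lower, and 4 to 11 inducers higher and 6 to 15 lower. Without both libraries numbered 3, 5355 genes, 16 ligands and 15 inducers were higher and 4 receptors lower. Scaling by library size alone gave 6218 genes higher and 1343 lower, and 19 inducers higher and 4 lower; upper-quartile factors gave 12 inducers higher. With the replicate block 14 ligands were higher, 11 inducers higher and 3 receptors lower; DESeq2 gave 11 inducers higher and 2 receptors lower. Receptors higher numbered 1 with limma-voom and 2 with the filter of 1 CPM in 3 libraries. The cause was not tested.

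Directions turned only for ligands that were not called. With 1 library left out the log2 fold ran from -0.70 to 1.44 for Ccl3, -0.24 to 1.86 for Ccl4, -0.01 to 3.33 for Ccl5, -0.60 to 2.74 for Ccl6, -0.58 to 1.73 for Ccl9, -0.37 to 1.86 for Ccl17 and -0.24 to 0.39 for Cxcl5, and for Cx3cl1 it was 0.00 with library-size scaling. Ligands under about 1 CPM rest on fewer counts, which limits their precision, most of all at the lowest levels. In Grp78KO 3, Cxcl10 at 0.999 CPM had 141 counts, and in Grp78KO 2, Cxcl9 at 0.101 CPM had 12.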

Other observations

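The other motifs searched for in the promoters of the ligands were not kappaB-like. The AP-1 motif TGANTCA was held by 6 of 27 ligands (22.2%), Ccl9, Ccl27a, Ccl27b, Ccl28, Cxcl9 and Cxcl10, against 7.81% of all promoters. The interferon response motif AAANNGAAA was held by 5 (18.5%), Ccl19, Ccl27b, Ccl28, Cxcl10 and Cxcl14, against 10.6%. The composite motif of ATF4 and C/EBP, TGATGNAA, was held by Ccl27a and Ccl27b (7.41%), against 3.97%. The letters CCACG of unfolded protein response elements were held by 4 (14.8%), Ccl1, Ccl17, Ccl21b and Cxcl14, against 32.8%. The window of Ccl21b, and the Ccl27b windows with the ATF4 and C/EBP and the interferon response matches, do not lie at a transcript start of these genes in GENCODE M21, so those matches may not be in their promoters. Here too a ligand was counted once over all its windows, and all promoters window by window. The shares are therefore not like for like, and Ccl27a and Ccl27b each had several windows. Each motif was searched on both strands, and a missing match says only that these letters are not in the window.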
